A study of Homo sapiens with 2 samples.

Results

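Peaks of Flag-tagged ETV4, an ETS family transcription factor, were examined at 10 immediate early genes, the EGR family genes EGR1, EGR2, EGR3 and EGR4, the IER genes IER2, IER3 and IER5, the gene of the serum response factor SRF, and the Krüppel-like factor genes KLF4 and KLF6. The genes were listed by name and not by a ChIP-seq value, but with earlier results of these data known. They stand among 20037 protein-coding RefSeq genes. Every peak whose interval lay within 20 kb of the span of a listed gene was taken, which gave 50 peaks of the 54389 in the list. Positions are on the hg38 build. No peak lay in the windows of 2 listed genes.

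The cells were A549, an established human lung adenocarcinoma line, carrying an shRNA against ETV4 and transfected again with a plasmid for full-length, Flag-tagged ETV4. Chromatin was precipitated with a Flag antibody in 1 library, and 1 input library of the same line served as the control. The labels name a Sigma antibody and the methods one from CST. The protein followed is the tagged, re-expressed one, the promoter that drives it is not given in the sources used here, and no library from cells without the tag was analysed here. With 1 immunoprecipitate there are no replicates, so all values below are descriptions without a test between conditions.

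Immediate early genes are transcribed within minutes of a growth factor or stress signal, without the need for new protein. Many of them respond to ERK, which phosphorylates ETS factors such as ELK1 that sit beside SRF at a DNA element named the CArG box. The products are mostly short-lived transcription factors that pass the signal on to later genes. ETS factors, ETV4 included, bind sequences built around GGAA, and ETV4 belongs to a group of them that is itself a nuclear target of ERK. EGR1 is also one of the loci at which the study measured R-loops, which are RNA:DNA hybrids that leave a single DNA strand unpaired.

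The RefSeq table of promoters (GRCh38.p14), which gives 250 bases before and 50 bases after each transcript start, held 11 windows of 8 of the genes and none of EGR3 or IER3. Peaks overlapped 10 of the 11 windows, against 42.1% of the 35116 windows in the table. The 3 genes whose windows contain a CArG box are shown first, as the 250 bases before the start, with CArG boxes and GGAA on either strand in capitals. The element was found in 1.29% of all windows and in 0.962% of those overlapped by a peak.

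EGR1, chr5:138465229-138465478, + strand: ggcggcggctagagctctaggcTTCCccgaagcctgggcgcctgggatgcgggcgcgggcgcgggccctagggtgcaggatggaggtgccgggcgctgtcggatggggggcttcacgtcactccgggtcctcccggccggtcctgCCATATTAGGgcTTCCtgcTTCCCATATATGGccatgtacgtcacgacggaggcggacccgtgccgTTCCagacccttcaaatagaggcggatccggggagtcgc
EGR2, inner start, chr10:62816367-62816616, − strand: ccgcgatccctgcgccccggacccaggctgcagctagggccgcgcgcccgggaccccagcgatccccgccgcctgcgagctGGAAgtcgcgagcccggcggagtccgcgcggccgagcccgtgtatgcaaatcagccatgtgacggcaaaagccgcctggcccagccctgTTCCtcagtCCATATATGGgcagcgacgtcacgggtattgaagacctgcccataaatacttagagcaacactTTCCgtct
SRF, outer start, chr6:43171019-43171268, + strand: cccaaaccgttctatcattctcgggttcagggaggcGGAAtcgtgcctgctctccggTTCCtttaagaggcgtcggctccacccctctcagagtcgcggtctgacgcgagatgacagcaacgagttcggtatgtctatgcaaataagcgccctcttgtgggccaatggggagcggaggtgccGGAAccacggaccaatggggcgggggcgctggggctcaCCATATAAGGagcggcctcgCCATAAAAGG

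In EGR1, the CArG boxes began 105 and 83 bases before the start, with a GGAA on the reverse strand, read as TTCC, between them and another that shares a base with the second box. Both boxes lay inside the ETV4 peak, 128 and 150 bp from its summit. In SRF, whose promoter thus holds the element bound by its own protein, the boxes began 30 and 10 bases before the outer start and also lay inside the peak, but its summit was 1111 bp from the nearer one. In EGR2 the single box began 71 bases before the inner start and lay 27 bp outside the edge of the peak. A GGAA within 20 bases of a CArG box was present in 3 of the 11 windows, 1 of each of these genes, and in 0.766% of all windows. The share was 0.569% among windows overlapped by a peak and 0.909% among the others. Of the 454 windows of the table with a CArG box, 269 had such a GGAA. ETS factors can sit beside SRF where their sites are close, but a match shows only the letters. In SRF the GGAA so counted shares the last bases of the second box and runs across the start, so its last letters lie past the printed end. Whether an ETS factor could sit beside SRF there was not tested.

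All motifs were searched on both strands, matches of different motifs may overlap, and a match is a description of the letters. The longer ETS sequence CCGGAA, which contains GGAA, occurred in 1 window each of IER2, IER5 and SRF. It occurred in 17.2% of all windows and in 30.5% of those overlapped by a peak, as 10 of these 11 were. A binding sequence of the EGR proteins themselves, GCGNGGGCG, occurred in 1 window each of EGR1, EGR2, SRF, KLF4 and KLF6. Its share was 9.43% of all windows and 17.5% of those overlapped by a peak. No window of the listed genes held the AP-1 sequence TGANTCA or the cAMP response sequence TGACGTCA. These occurred in 7.71% and 1.85% of all windows, and in 4.67% and 3.02% of those overlapped by a peak. Shorter or partial forms of them were not searched. GGAA alone occurred in 11 of 11 windows and in 95.5% of all windows. The next set shows the other windows that hold both a peak summit and a GGAA within 10 bases of it, again with GGAA in capitals.

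EGR4, chr2:73293549-73293798, − strand: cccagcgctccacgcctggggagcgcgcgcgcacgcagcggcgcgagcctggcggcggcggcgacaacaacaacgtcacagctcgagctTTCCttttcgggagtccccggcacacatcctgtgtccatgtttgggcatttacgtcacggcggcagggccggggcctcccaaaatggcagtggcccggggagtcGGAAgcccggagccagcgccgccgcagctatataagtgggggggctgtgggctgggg
IER2, chr19:13150161-13150410, + strand: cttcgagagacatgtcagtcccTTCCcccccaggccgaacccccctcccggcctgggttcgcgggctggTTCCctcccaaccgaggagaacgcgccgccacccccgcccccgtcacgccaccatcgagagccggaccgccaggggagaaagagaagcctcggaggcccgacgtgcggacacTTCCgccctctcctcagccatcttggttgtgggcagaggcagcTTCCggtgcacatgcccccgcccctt
SRF, inner start, chr6:43172146-43172395, + strand: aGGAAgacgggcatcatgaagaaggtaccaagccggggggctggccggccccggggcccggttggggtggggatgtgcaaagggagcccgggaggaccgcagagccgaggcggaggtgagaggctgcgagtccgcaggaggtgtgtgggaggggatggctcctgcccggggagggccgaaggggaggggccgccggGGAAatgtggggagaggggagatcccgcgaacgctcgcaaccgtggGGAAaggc

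A summit lay inside 5 windows of the listed genes. The nearest GGAA was 5 bp from it in EGR1, 8 bp in EGR4, 7 bp in IER2 and 9 bp at the inner start of SRF. In the window of the middle start of EGR2 the distance was 158 bp. Among the 5023 windows of the table with a summit inside, 37.7% had a GGAA within 10 bases of a summit. The limit of 10 bases was set after these distances had been seen.

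All 10 genes had at least 1 peak that came within 1 kb of either end of their span, called a gene-end peak below. Such a peak was found for 62.1% of all protein-coding genes and for 51.9% of the 7602 that, like the listed genes, span at most 15 kb. The fold enrichment is the caller's ratio of the immunoprecipitate to the local control level at the summit, and the −log10 q is its significance after adjustment over the genome. Of the 50 peaks, 17 were gene-end peaks, 4 lay inside a gene further than 1 kb from both ends, and 29 were distal, that is outside the gene and more than 1 kb away. The median fold enrichment was 26.5 for the gene-end peaks, 12.9 for the gene-body peaks and 11.8 for the distal peaks, against 9.63 over the whole list. Over the 16048 peaks of the list within 1 kb of an end of any gene it was 13.7, the closer comparison for the gene-end peaks. The distal difference did not hold under stricter limits: among peaks with a −log10 q of at least 10 the medians were 14.8 for the distal peaks and 15.3 for the list, and among those with a fold enrichment of at least 10 they were 21.3 and 20.8. The 50 summits had a pileup of 8 to 269 fragments, with a control level of 1.28 to 5.06.

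**Figure D1:**
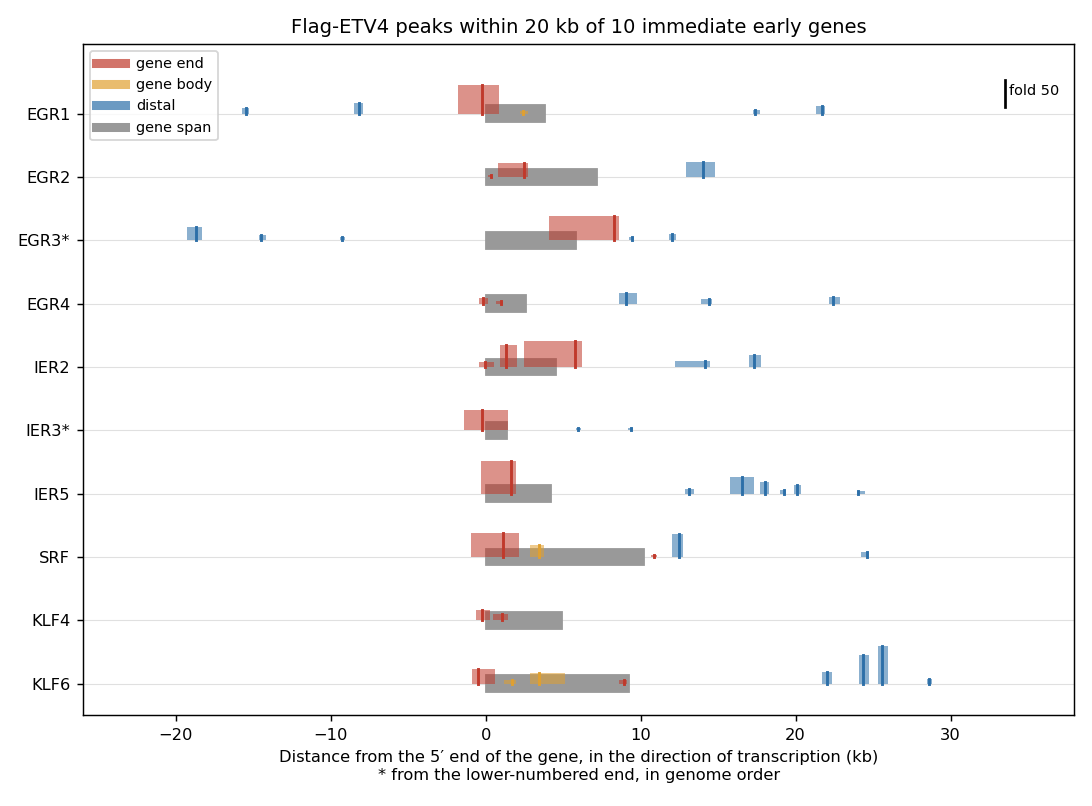
Peaks within 20 kb of the 10 genes, drawn along the direction of transcription from the 5′ end of each gene (kb), with EGR3 and IER3 in genome order from the lower-numbered end. Each box spans a peak interval, its height is proportional to the fold enrichment, the dark line is the summit and grey bars are gene spans. Red gene-end peaks are present in all rows, and the tallest boxes are the distal pair of KLF6 and the gene-end peak of IER5.

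The EGR genes encode zinc finger transcription factors that recognise a GC-rich sequence. EGR1, the family member most used as a readout of ERK activity, had its strongest peak across the 5′ end, at 138463683-138466303 on chromosome 5. The fold enrichment was 52.3 and the −log10 q 252, with a pileup height of 175 overlapping fragments (150 to 203, the exact Poisson interval at 95%, which covers counting error only, as do those that follow) at a summit 233 bp before the start. This peak covered the whole promoter window shown above. A gene-body peak of EGR1, with an enrichment of 5.54-fold and a height of 18 fragments (10.7 to 28.4), began 2234 bp from the 5′ end. Its interval was 1078 bp from the 3′ end, just beyond the limit that would have made it a gene-end peak.

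EGR2, a regulator of myelination and of hindbrain patterning, has 3 starts in the promoter table. Its strongest gene-end peak, at 62816464-62818376 on chromosome 10, had an enrichment of 26.5-fold, a −log10 q of 101 and a height of 88 fragments (70.6 to 108). The summit was 2437 bp from the outer 5′ end but 364 bp upstream of the inner start, whose window is the one with the CArG box. The window of the outer start was the only one of the 11 that no peak overlapped. At the middle start lay a weak peak at 62818775-62819000, with an enrichment of 3.94-fold and 8 fragments (3.45 to 15.8), the lowest pileup of the 50. Among the gene-end peaks of EGR2 the highest summit was thus near the inner start and not at the end of the gene span.

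EGR3, which is needed for muscle spindle development and acts with EGR2 in lymphocytes, lies on chromosome 8 from 22687659 to 22693480. A peak of 4530 bp at 22691714-22696243, the widest of the 50, crossed its higher-numbered end. It had an enrichment of 45.1-fold, a −log10 q of 150 and a height of 102 fragments (83.2 to 124). Its summit was 2427 bp outside the gene, with an end of the lncRNA gene LOC105379321 at 425 bp.

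EGR4, a neuronally expressed member of the family, had the lowest value of the 10 genes for its strongest gene-end peak. The peak was at 73293390-73293993 on chromosome 2 and had an enrichment of 10.6-fold, a −log10 q of 20.1 and a height of 24 fragments (15.4 to 35.7). The summit was 169 bp before the start. Inside the gene a peak with an enrichment of 4.82-fold and 10 fragments (4.80 to 18.4) lay 653 bp from the 5′ end. The counting interval of the EGR4 pileup, carried over to the fold, was 6.97 to 15.6 and did not meet those of EGR1, EGR2 and EGR3.

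The IER genes are named only for their rapid response and are not a sequence family as a whole. IER2, which encodes a small nuclear protein, had 3 gene-end peaks with higher values inside the gene and at its 3′ end than at the promoter. The peak on the promoter, at 13149947-13150926 on chromosome 19, had an enrichment of 9.34-fold with 43 fragments (31.1 to 57.9), and its summit was 59 bp before the start and 23 bp from an end of STX10. Inside the gene, the peak at 13151348-13152438 had an enrichment of 41.4-fold with 166 fragments (142 to 193). The peak across the 3′ end, at 13152892-13156591, had an enrichment of 47.2-fold, a −log10 q of 357 and 269 fragments (238 to 303), the highest pileup and q of the 50. The summit lay past the 3′ end, by 1241 bp. The pileup intervals of the inner and the 3′ peak did not overlap that of the promoter peak. The control level was 3.71, 3.04 and 4.73 at these summits along the gene.

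IER3, a stress-induced regulator of cell survival and ERK signalling, was covered over its entire span of 1349 bp by a peak at 30741812-30744661 on chromosome 6. The fold enrichment was 37.0, the −log10 q 201 and the pileup 161 fragments (137 to 188). The summit was 228 bp outside the lower-numbered end and 8 bp from an end of IER3-AS1, the antisense transcript of the locus. Which of the transcripts the peak belongs to cannot be told apart by position.

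IER5, which encodes a regulator of heat shock factor activity, had the highest gene-end value. Its peak was at 181088369-181090657 on chromosome 1, with an enrichment of 59.6-fold, a −log10 q of 220 and 139 fragments (117 to 164). It began before the start and covered 46.6% of the gene span, and its summit was 1623 bp inside the gene.

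SRF, the CArG box binding factor on which many immediate early promoters depend, had a peak at 43170340-43173391 on chromosome 6 that covered both promoter windows. The fold enrichment was 44.4, the −log10 q 206 and the pileup 151 fragments (128 to 177). Its summit was 1110 bp inside the gene and 17 bp before the inner start. A gene-body peak, at 43174150-43175001, had an enrichment of 21.8-fold with 87 fragments (69.7 to 107). Near the 3′ end a weak peak, with an enrichment of 4.29-fold, had its summit 94 bp from an end of the neighbour CUL9.

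KLF4, one of the reprogramming factors and a brake on epithelial proliferation, had 2 gene-end peaks and no others within 20 kb. The peak across the 5′ end, at 107489513-107490422 on chromosome 9, had an enrichment of 19.6-fold, a −log10 q of 51.2 and 47 fragments (34.5 to 62.5), with a summit 271 bp before the start. The peak next to it inside the gene had an enrichment of 12.1-fold with 33 fragments (22.7 to 46.3). The nearest peak outside the window was 58.7 kb away, and KLF4 was the only one of the 10 genes without a distal peak.

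KLF6, described as a tumor suppressor and an injury response gene, had 8 peaks, the most of the 10 genes. The peak across its 5′ end, at 3784623-3786114 on chromosome 10, had an enrichment of 26.7-fold, a −log10 q of 74.7 and 60 fragments (45.8 to 77.2), with a summit 483 bp before the start. Inside the gene lay peaks with fold enrichments of 6.57 and 19.3, the latter 2301 bp wide, and at the 3′ end one of 7.36.

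Ordered by their strongest gene-end peak, the genes ran IER5, EGR1, IER2, EGR3, SRF, IER3, KLF6, EGR2, KLF4 and EGR4. The counting intervals of all 9 neighbouring pairs in this order overlapped, so the order between neighbours is not resolved. The median over the 10 genes was 40.7, against 17.6 over the 12444 protein-coding genes with a gene-end peak and 16.8 over those that span at most 15 kb. All 10 had a gene-end peak with a fold enrichment of at least 10, against 45.2% of all protein-coding genes. One with a fold enrichment of at least 25 was present in 8 of the 10 genes, against 20.8% of all protein-coding genes and 16.3% of those that span at most 15 kb. At a fold enrichment of at least 40 the count was 5 of 10, against 8.72% of protein-coding genes. Among genes with a gene-end peak, IER5 was at percentile 95.7, EGR1 at 93.3 and EGR4 at 29.7. These values take the interval of a peak as its place. When the summit itself had to lie within 1 kb of a gene end, 8 genes kept a gene-end peak, against 58.5% of protein-coding genes. Their median fold enrichment was 15.1, against 16.8 over all protein-coding genes that had one by summit. By this rule EGR3 and IER5 had none, and EGR2, IER2 and SRF were left with their weaker peaks of 3.94, 9.34 and 4.29.

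**Figure D2:**
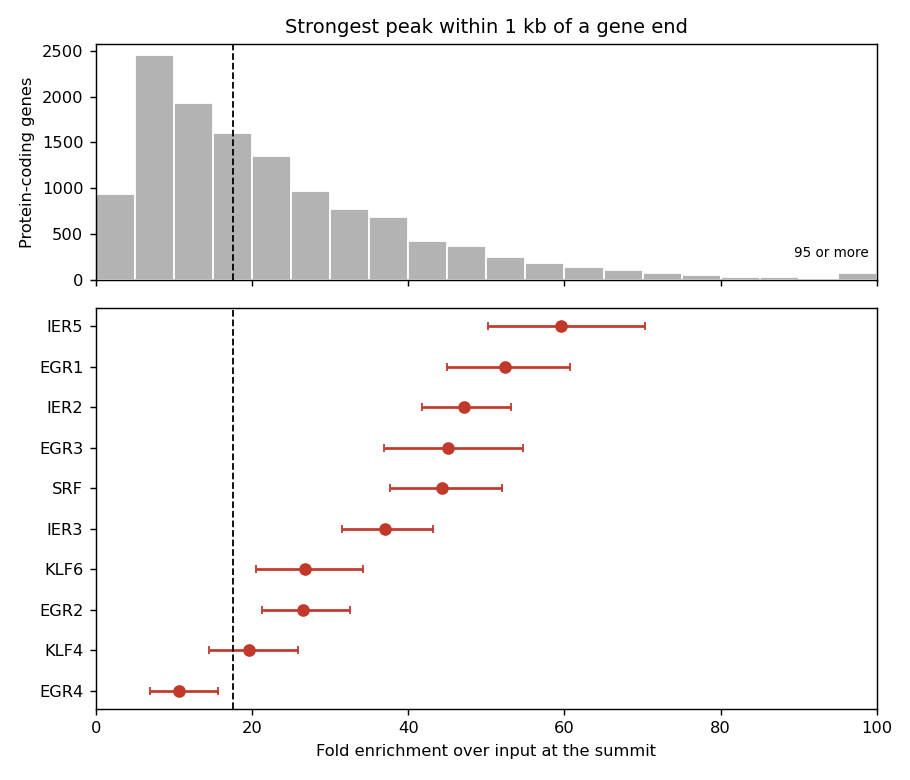
Fold enrichment of the strongest peak within 1 kb of a gene end, as a histogram over the 12444 protein-coding genes that have one (top, last bar 95 or more) and for the 10 genes (bottom). Points are the deposited values, bars the exact Poisson 95% interval of the pileup carried over to the fold (counting error only, n = 1 library), and the dashed line the median over protein-coding genes, 17.6. The bars of KLF4 and EGR4 reach or lie below the dashed line and those of the other 8 genes lie above it.

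The strongest gene-end peak had its summit within 1 kb of an end in 5 of the 10 genes, EGR1, EGR4, IER3, KLF4 and KLF6, against 91.1% of the protein-coding genes with a gene-end peak. In EGR2, EGR3, IER2, IER5 and SRF the summit was 1110 to 2437 bp from the nearer end. A gene-end peak of at least 2 kb was present in 6 of 10 genes, against 7.28% of protein-coding genes. These were EGR1, EGR3, IER2, IER3, IER5 and SRF, and in all of them this wide peak was also the strongest. Of those 6 peaks, 2 had the summit within 1 kb of an end, against 75.9% of the 1396 protein-coding genes whose strongest gene-end peak was at least 2 kb wide. The list gives a single summit per peak, so further maxima in a wide peak are not seen. A wide interval also reaches a gene end more easily than a narrow interval does.

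Peaks covered a median of 32.7% of the gene span in the 10 genes, against 2.06% over protein-coding genes that span at most 15 kb. That background includes genes without a gene-end peak, whereas all 10 listed genes have one. The covered share was 100% in IER3, 80.6% in IER2 and 23.2% in EGR4, the lowest, which was still at percentile 88.1 of those genes. Peaks lay within 1 kb of both ends in 4 genes, IER2, IER3, SRF and KLF6, against 10.8% of protein-coding genes that span at most 15 kb.

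**Figure D3:**
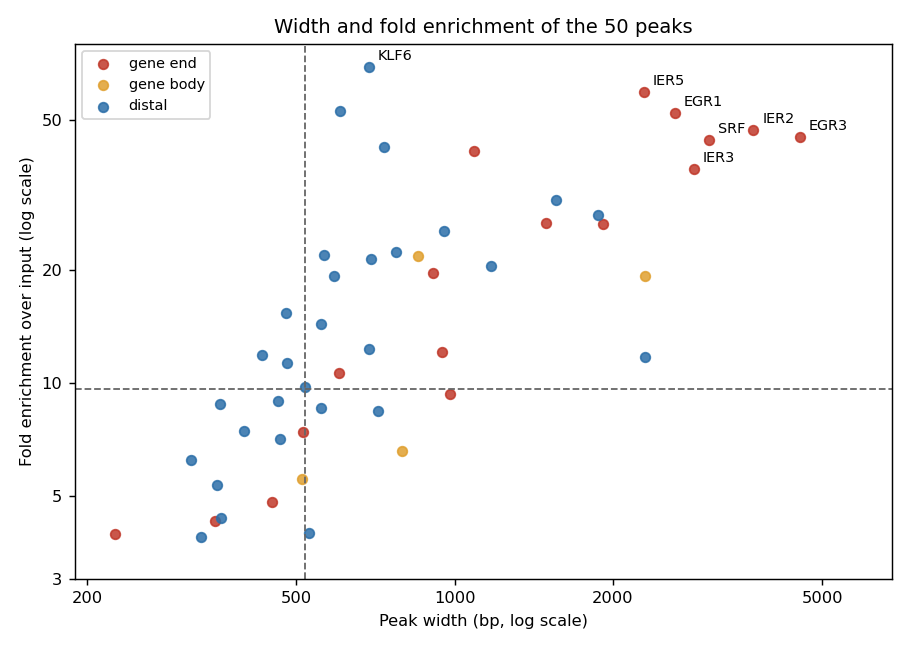
Width (bp) and fold enrichment of the 50 peaks on log axes, by place relative to the gene, with the strongest peak of 7 genes named. Dashed lines are the medians of the whole list, 519 bp and 9.63. The widest strong peaks, at the upper right, are gene-end peaks, whereas the strongest of all, a distal peak of KLF6, is 688 bp wide.

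The window of 20 kb held a median of 5 peaks per gene, against 2 over all protein-coding genes and 2 over those that span at most 15 kb. At least 1 peak was present for 10 of 10 genes, against 86.1% of protein-coding genes and 76.9% of those that span at most 15 kb, and 5 or more for 7 of 10, against 18.9% of those that span at most 15 kb. Distal peaks were found for 9 of 10 genes, against 66.0% of those genes, and gene-body peaks for 3 of 10, against 12.9%. Of the 29 distal peaks, 7 lay within 1 kb of an end of another gene and had a median fold enrichment of 25.4. The other 22 had a median of 11.5, against 8.32 over all peaks of the list that lie more than 1 kb from any gene end.

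The highest of the 50 values was at a distal peak of KLF6, beyond its 3′ end. The peak at 3759217-3759904 had an enrichment of 69.2-fold, at percentile 97.2 of the list, a −log10 q of 260 and 157 fragments (133 to 184). The next, at 3760488-3761092, had an enrichment of 53.0-fold and 120 fragments (99.5 to 143). Their summits were 16.4 and 15.1 kb from the 3′ end of KLF6, and 687 and 545 bp from an end of the lncRNA gene LOC105376363. Position does not show which gene this pair serves. Both exceeded the promoter peak of KLF6, and the pileup intervals did not overlap with it. A further peak of 21.3 lay 12.8 kb beyond the 3′ end, and one of 8.76, near LOC105376361, at 19.4 kb.

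IER5 had 6 distal peaks, all beyond its 3′ end at 8.93 to 19.9 kb, and for all of them no gene end was nearer than that of IER5. The strongest, at 181104487-181106042, had an enrichment of 30.7-fold with 92 fragments (74.2 to 113), and the one next to it, at 181106425-181106989, had 21.9 with 80 fragments (63.4 to 99.6). The other 4 had fold enrichments of 3.97 to 15.3. Of these 6 peaks, 3 were above the median of the list, 9.63, and 3 below it.

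At SRF, a peak at 43183271-43184005 had an enrichment of 42.4-fold with 133 fragments (111 to 158), an interval that overlapped with that of the peak across its 5′ end. Its summit lay 2227 bp beyond the 3′ end of SRF and 1537 bp inside CUL9, the gene of a cullin family protein. The strongest distal peak of EGR2, with an enrichment of 27.9-fold, spanned an end of ADO, and that of EGR3, with 25.4, an end of BIN3. The strongest of EGR4, with 20.5, had its summit 13 bp from an end of LOC124907840. These 3 peaks sit at ends of other genes, and position does not show which gene they serve.

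EGR1 had 4 distal peaks that were nowhere within 1 kb of a gene end. The stronger of the upstream pair, at 138456960-138457550, had an enrichment of 19.3-fold with 43 fragments (31.1 to 57.9) and a summit 8.20 kb before the start. The other, 15.5 kb before the start, had 11.3 and was nearest to REEP2, an end of which lay 3058 bp from its summit. On the downstream side the values were 7.07, nearest to the pseudogene RPL7P19, and 14.3, nearest to the lncRNA gene LOC124901078. IER2 had distal peaks of 11.7 and 22.3 on its 3′ side, nearest to the pseudogene RPL12P42, and those of IER3, nearest to RN7SL353P, had 4.36 and 3.89.

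In the 8 genes whose direction the promoter table gives, 20 of 22 distal peaks lay on the 3′ side and 2, both of EGR1, on the 5′ side. Over protein-coding genes that span at most 15 kb and have a direction in the table, 52.5% of distal peaks lay on the 3′ side. Distal peaks on the 3′ side only were found in 6 of the 7 genes with any, against 30.9% of those genes. Peaks of 1 gene are not independent, and IER5 and KLF6 together gave 10 of the 22. Without these genes the 3′ share was 83.3%. This split was looked at after the values had been seen.

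The limit of 20 kb is a choice. The peaks just inside it were that of IER5 at 19.8 kb, with an enrichment of 3.97-fold, and that of EGR4 at 19.6 kb, with 12.3. Just outside it were those of KLF6 at 20.7 kb, with 9.26, and of IER3 at 21.1 kb, with 7.79. A stronger peak, with an enrichment of 51.6-fold, lay 24.1 kb from EGR4.

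Other genes of the same response were taken from lists set by name, with earlier results of these data known, and counted by the same rule. This rule takes the interval of a peak as its place, and the further lists were not counted by summit. Of 25 other immediate early genes, 22 had a gene-end peak and 16 one with a fold enrichment of at least 25, against 62.1% and 20.8% of all protein-coding genes. Their median was 35.8. The highest values were at TRIB1, a pseudokinase gene, with 129, at FOSB, with 56.0, and at JUNB, with 54.6, both genes of AP-1 subunits. ATF3, GEM and SGK1 had no gene-end peak, though SGK1 had 7 peaks in its window of 20 kb and GEM had 0.

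Of 8 genes for partners of these factors, 6 had a gene-end peak, against 62.1% of protein-coding genes, and 3 one with a fold enrichment of at least 25, against 20.8%. The median of the 6 was 26.7. The highest were NAB1, with 37.7, ELK3, with 34.9, and NAB2, with 32.8. NAB1 and NAB2 encode corepressors that bind EGR proteins, and ELK3 an ETS partner of SRF. MRTFB and MYOCD, which encode SRF coactivators of another class, had none. MRTFA, a gene of that same class, had a gene-end peak of 20.1. ELK4 had one of 20.7 and ELK1 one of 6.57. Of the 15 other KLF genes, 11 had a gene-end peak, against 62.1% of protein-coding genes, and 6 one of at least 25, against 20.8%. The middle of these 11 genes, KLF3, named after the values had been seen, lay at that limit. The comparison depended on the limit. At a minimum of 27 the shares were 20% of the other KLF genes and 18.7% of all protein-coding genes. At 30 they were 13.3% and 16.0%, and at 40 they were 13.3% and 8.72%. KLF10 had the highest value, 79.5, followed by KLF14 with 41.3 and KLF13 with 29.7, whereas KLF1, KLF5, KLF12 and KLF17 had none.

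Of 9 cytoskeletal genes that are known SRF targets, 7 had a gene-end peak, against 62.1% of protein-coding genes, with a median of 11.7, and 2, ACTG1 with 31.0 and CNN2 with 30.4, reached 25. VCL, the next, had 20.5. FHL2 and MYL9 had none. The share at a fold enrichment of at least 25 was 22.2%, close to the 20.8% of all protein-coding genes, whereas it was 64% of the other immediate early genes. The lists differ in size and gene length, and the difference between them was not tested.

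**Figure D4:**
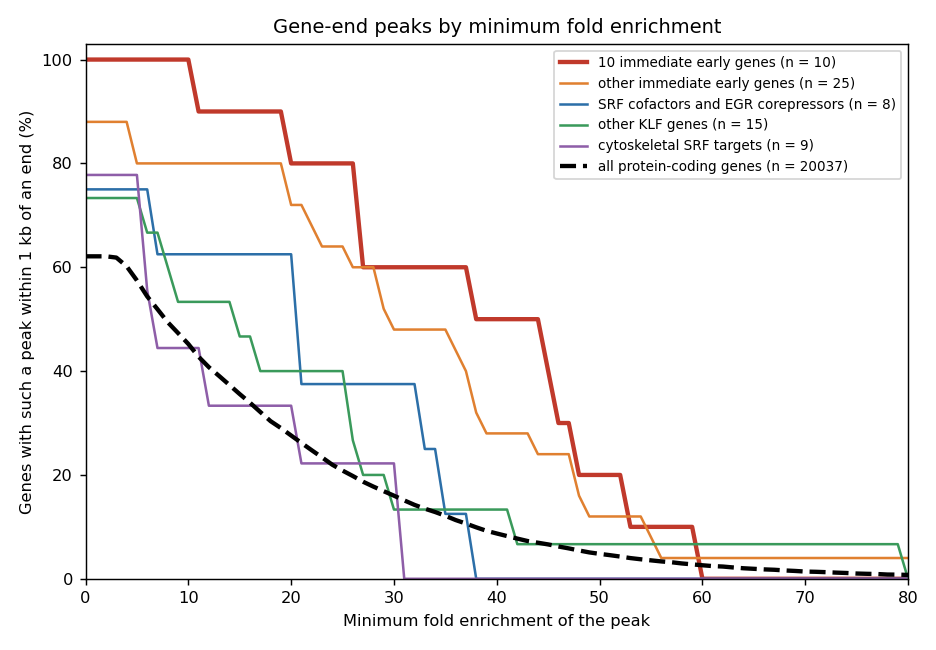
Share of genes (%) with a peak interval within 1 kb of an end, by the minimum fold enrichment required, for the 10 genes, the 4 further lists and all protein-coding genes (dashed). At a minimum of 25 the 10 genes stand at 80%, the other immediate early genes at 64% and all protein-coding genes at 20.8%.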

How the data were processed

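The peak list of 1 Flag immunoprecipitate, from ETV4-knockdown A549 cells that re-expressed tagged ETV4, was analysed. The input library enters only through the control level. The submitters' processing notes name Bowtie2 2.4.1, SAMtools, MACS2 2.2.7.1, deepTools 3.5.0 and the build hg38. Parameters, roles and the handling of duplicate reads are not given in the sources used here. For each peak, the authors deposited the fold enrichment as a ratio, the p-value and q-value as −log10 values, the summit and a display score, which was used only to check the q column. The lowest deposited −log10 q was 1.30, and peaks were called on the single library.

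Distances ran from the peak interval to the ends of the RefSeq gene span (GRCh38.p14), over 59679 genes on chromosomes 1 to 22, X and Y. Strand and starts came from the RefSeq promoter table. Positions are 1-based. Pileup height and control level were solved for every summit, using its deposited fold and −log10 p, a pseudocount of 1 and a Poisson tail, and each height was within 0.00914 of a whole number. The median pileup of the list was 26 fragments, and 29.0% of peaks had the lowest control level, 1.28, below which the input is not seen. Poisson intervals cover counting error only. The solver and the distances were tested on simulated data. The genes, lists and tests were chosen with earlier results of these data known. Named genes were the 10 listed ones, the genes nearest their summits, and of the other lists those without a gene-end peak and the 3 highest. ELK1, ELK4, MRTFA and KLF3 were named in addition after the values had been seen. The alternatives were higher limits on fold or q, summits in place of intervals, other windows and short genes as background. Tables were made with pandas 2.3.3 and numpy 2.4.6 in Python 3.11.15, intervals with scipy 1.17.1 and plots with matplotlib 3.10.9.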

Additional observations from a re-analysis of the deposited data

How the results depend on the processing

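No paired analysis was possible because there was 1 immunoprecipitate and 1 input, of which only the former has a list. All 10 genes kept a gene-end peak with a fold enrichment of at least 5 (57.5% of protein-coding genes) or 10 (45.2%), with a −log10 q of at least 10 (53.6%), and with a gene-end window of 0.5 kb (59.2%) or 3 kb (68.4%), and 8 of 10 did by summit (58.5%). By transcript start, an alternative added after the data had been seen, 8 of the 8 genes in the promoter table had a peak within 1 kb, against 64.4% of the protein-coding genes in it. The number of peaks in the windows was 31 with a fold enrichment of at least 10, 32 with a window of 10 kb and 84 with one of 50 kb, in place of 50, and 43 when distal peaks at ends of other genes were left out. The median of the strongest gene-end peaks was 15.1 by summit, where the strongest peaks of EGR2, EGR3, IER2, IER5 and SRF no longer count, and 40.7 under the other thresholds and windows tried. In units of pileup that median was 120.5 fragments, against 54 over protein-coding genes. The median of the distal peaks was 21.3 once a fold enrichment of at least 10 was required, which removes the weaker peaks by construction, against 20.8 over the list under the same limit. It was 14.8 with a −log10 q of at least 10, below the 15.3 of the list, and 10.8 to 13.3 over all the other alternatives. Of the 57 genes of the further lists, 46 had a gene-end peak, against 62.1% of protein-coding genes, and 37 one with a fold enrichment of at least 10, against 45.2%. The 3′ share of distal peaks ranged from 83.3% to 88.9% over the subsets tried.

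The depth of 1 library limits the weakest peaks most: the 8 fragments at the weakest EGR2 summit have a counting interval of 3.45 to 15.8. The absence of a peak says only that none passed the caller's threshold at this depth.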
